A study of Mus musculus with 6 samples.

Results

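The AMPA and NMDA receptor subunits are the proteins that make up the main fast glutamate-gated channels of the brain. They were followed here as 10 listed genes, 4 of AMPA receptors (Gria1, Gria2, Gria3 and Gria4) and 6 of NMDA receptors (Grin1, Grin2a, Grin2b, Grin2c, Grin2d and Grin3a). Members were chosen by gene symbol. A probe set, the group of array probes summarised into a single value, was paired with the symbol of 9 of the 10, out of 19938 genes tested. Each of the 9 had 1 probe set. No probe set carried the symbol Grin1, alone or with others, in the array annotation used, so Grin1 was not measured here.

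The study asked whether ethanol given to newborn mice leaves changes in the adult hippocampus. Male C57Bl/6J mice were injected with ethanol, 2.5 g/kg each time and 2 times a day, on the postnatal days 4 and 7, or with saline on the same schedule, and the hippocampus was taken on postnatal day 70. Littermates matched for sex and weight were divided between the 2 treatments, so the groups can share litters. RNA of 3 males from different litters was pooled for each array, which gave 3 ethanol pools and 3 saline pools from 18 mice in all. Values are on a log2 scale, and every change below is ethanol minus saline. An array of 1 pool averages its mice, so the spread given is that between pools and the spread between single mice was not measured.

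AMPA and NMDA receptors are assemblies of subunits that open when glutamate binds. AMPA receptors carry most of the fast excitatory current, and receptors that hold the edited form of the Gria2 product pass little calcium. NMDA receptors need the Grin1 product together with Grin2 or Grin3 products, are blocked by magnesium at rest and admit calcium when the cell is depolarised while glutamate is bound, which starts many forms of synaptic plasticity. In the hippocampus the balance between the products of Grin2b and Grin2a shifts towards Grin2a during postnatal development. Ethanol is a known inhibitor of NMDA receptors.

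Start-site windows were available for 5 of the 10 genes (Gria2, Gria4, Grin1, Grin2c and Grin2d) in the RefSeq tables of build GRCm38.p6, each running from 250 bases before the annotated start to 50 bases after it. The windows of 3 genes are printed because they are the gene whose pools separated, Gria2, and those with the lowest and the highest change, Grin2c and Grin2d. All 3 genes lie on the minus strand, and the windows read 5′ to 3′ along the gene at chr3:80802786-80803085 for Gria2, chr11:115267194-115267493 for Grin2c and chr7:45866632-45866931 for Grin2d. Capitals mark CG dinucleotides, the main sites of DNA methylation in mammals, although neurons also methylate other cytosines.
Gria2: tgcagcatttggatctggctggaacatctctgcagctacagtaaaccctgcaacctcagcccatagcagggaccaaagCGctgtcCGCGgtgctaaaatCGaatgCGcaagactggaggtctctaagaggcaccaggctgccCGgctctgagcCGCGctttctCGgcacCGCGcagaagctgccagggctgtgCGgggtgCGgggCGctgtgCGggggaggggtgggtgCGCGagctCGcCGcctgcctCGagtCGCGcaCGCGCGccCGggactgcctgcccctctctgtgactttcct
Grin2c: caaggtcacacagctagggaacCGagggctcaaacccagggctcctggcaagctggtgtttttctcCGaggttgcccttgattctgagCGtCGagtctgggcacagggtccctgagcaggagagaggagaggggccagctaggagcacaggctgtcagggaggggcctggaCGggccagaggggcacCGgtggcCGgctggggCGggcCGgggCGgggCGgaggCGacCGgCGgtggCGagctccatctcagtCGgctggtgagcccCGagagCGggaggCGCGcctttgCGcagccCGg
Grin2d: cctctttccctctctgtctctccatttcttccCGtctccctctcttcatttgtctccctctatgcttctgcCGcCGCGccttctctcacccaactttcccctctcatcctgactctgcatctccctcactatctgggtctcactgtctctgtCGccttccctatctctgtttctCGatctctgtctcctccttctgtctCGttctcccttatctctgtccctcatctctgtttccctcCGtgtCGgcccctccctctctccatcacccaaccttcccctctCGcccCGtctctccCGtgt

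The Gria2 window held 26 CG dinucleotides and was 65.7% G or C, and 83.1% of all 32851 windows held fewer. The Grin2c window held 22 at 70% G or C, and 76.9% of windows held fewer. The Grin2d window held 12 at 56% G or C, and 60.4% of windows held fewer, so these 3 windows all lay above the median window, which held 7 at 52.7% G or C. The letters GGGCGG, a GC box, were found on either strand 3 times in the Grin2c window and 1 time in that of Grin1, that is in 2 of the 5 windows and in 35.7% of all windows. CACGTG, an E-box, occurred only in the Grin1 window among the 5, against 7.15% of all windows, and TATAAA occurred in 0 of the 5 against 13.6%. These matches describe the letters of the windows only, and DNA methylation in the same mice was not analysed here.

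The 6 arrays were alike over all 35556 rows, with medians between 5.84 and 5.89 and correlations between 0.997 and 0.998. As a reference for dim signal, 1194 genes of olfactory and vomeronasal receptors, which the hippocampus hardly uses, were taken, and the 95th percentile of their means, 5.38, is called the receptor level below. All 9 measured subunits lay above it. The labelled tissue was checked against markers: 11 of 11 markers of hippocampal excitatory neurons lay above the receptor level and 4 of 4 markers of cerebellar granule cells lay at or below it. Of 12 thalamus markers 3 lay at or below it, and of 12 choroid plexus markers 0. The check therefore did not set the hippocampus apart from those neighbouring tissues. In bulk tissue, fewer cells of a type and less RNA per cell cannot be told apart.

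No measured AMPA or NMDA subunit passed the test between ethanol and saline. With limma, 0 of the 9 had an unadjusted p under 0.05, where 5.22% of all genes did, and 0 passed after Benjamini-Hochberg adjustment, where 0% of all genes did. The 9 adjusted p-values of limma were 0.931 or higher. The changes ran from -0.094 for Grin2c to 0.11 for Grin2d, and their median size without sign was 0.029, beside 0.037 over all genes. The mean was lower in ethanol for 6 subunits and higher for 3 (Gria4, Grin2d and Grin3a), where 49.9% of all genes were lower, and with each array centred on its median the split became 8 lower and 1 higher. Standard errors ran from 0.036 to 0.074, with a median of 0.056 beside 0.049 over all genes. The number of arrays limits the precision, so small changes of these subunits could have gone uncalled. The smallest change that would have been called was not computed.

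**Figure D1:**
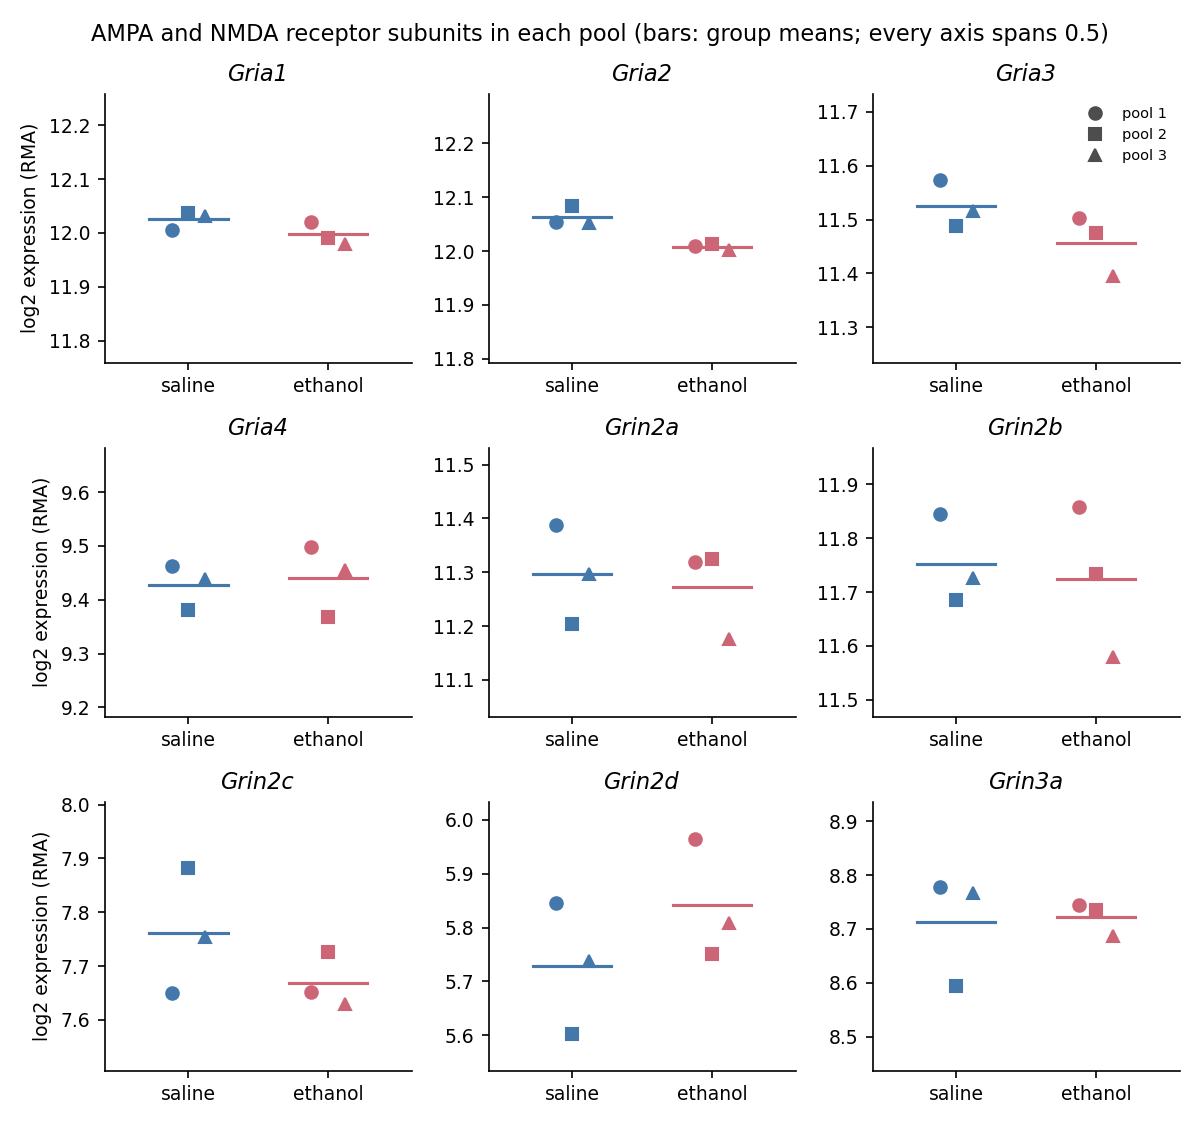
Log2 expression (vertical axis, RMA values) of the 9 measured subunits in the 3 saline pools (blue) and the 3 ethanol pools (red), with bars at the group means and every axis spanning 0.5. The saline and ethanol pools overlap in 8 panels and stand apart in that of Gria2, where the ethanol mean is 0.055 lower.

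Of the AMPA subunits, Gria1 encodes GluA1, whose insertion at synapses accompanies long-term potentiation. Its log2 level was 12.01, 12.04 and 12.03 in the saline pools and 12.02, 11.99 and 11.98 in the ethanol pools. The groups overlapped, with ethanol pool 1 above the lowest saline pool. The change was -0.028 ± 0.037 (SE), with a 95% confidence interval from -0.11 to 0.057, or 0.925 to 1.04 as a ratio.

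Gria2 encodes GluA2, the subunit that limits calcium entry. Its level was 12.05, 12.08 and 12.05 in the saline pools and 12.01, 12.01 and 12.00 in the ethanol pools. All 3 ethanol pools lay below all 3 saline pools, which held for no other subunit: 1 of the 9 did not overlap, where 10.4% of all genes did not, 5.09% with ethanol lower. The change was -0.055 ± 0.036 (SE) with an interval from -0.14 to 0.028, and limma's adjusted p was 0.931. The pools of each group were close, with an SD of 0.018 in saline and 0.0058 in ethanol (n = 3 each). The methods' t-test, which takes its spread from the gene alone, gave an unadjusted p of 0.00706 and an adjusted p of 0.953. Gria2 was the only subunit under 0.05 by that test without adjustment, 1 of 9, where 5.04% of all genes were and 2.37% were with ethanol lower.

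Gria3 encodes GluA3, a partner of GluA2 in many hippocampal receptors. Its level was 11.57, 11.49 and 11.52 in the saline pools and 11.50, 11.48 and 11.39 in the ethanol pools. The ranges met between 11.49 and 11.50, and ethanol pool 3 was the lowest of the 6. The change was -0.068 ± 0.046 (SE), with an interval from -0.17 to 0.036. Without ethanol pool 3 it was -0.037.

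Gria4 encodes GluA4, which in the adult hippocampus is known mainly from inhibitory interneurons. It measured 9.46, 9.38 and 9.44 in the saline pools and 9.50, 9.37 and 9.46 in the ethanol pools. Both groups spanned almost the same range, with ethanol pool 1 the highest and ethanol pool 2 the lowest. The change of 0.013 ± 0.047 (SE), interval -0.095 to 0.12, turned negative with median centring (-0.0027). It was also negative without saline pool 2 (-0.010) and without ethanol pool 1 (-0.016).

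Of the NMDA subunits, Grin2a encodes GluN2A, the subunit that gains share with maturation. Its level was 11.39, 11.20 and 11.30 in the saline pools and 11.32, 11.32 and 11.18 in the ethanol pools. The saline pools differed among themselves by more than the group means did. The change was -0.023 ± 0.061 (SE), with an interval from -0.16 to 0.12.

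Grin2b encodes GluN2B, which is known to prevail in the young hippocampus. It measured 11.85, 11.68 and 11.73 in the saline pools and 11.86, 11.73 and 11.58 in the ethanol pools. The ethanol pools held both the highest and the lowest of the 6 values, with an SD of 0.14 against 0.083 in saline. The change was -0.029 ± 0.074 (SE), with an interval from -0.20 to 0.14, and both Grin2a and Grin2b turned to higher in ethanol without saline pool 1 or without ethanol pool 3.

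Grin2c encodes GluN2C, known best from cerebellar granule cells, thalamus and astrocytes. Its level was 7.65, 7.88 and 7.75 in the saline pools and 7.65, 7.73 and 7.63 in the ethanol pools. Saline pool 2 was the highest of the 6, and saline pool 1 lay at the level of the ethanol pools. The change, the lowest of the 9, was -0.094 ± 0.062 (SE) with an interval from -0.23 to 0.047 and an adjusted p of 0.931 in limma. It rested on single pools, being -0.033 without saline pool 2 and -0.15 without saline pool 1, where its unadjusted p was 0.0316 in the limma fit of the other 5 pools. The mean of 9 astrocyte markers, as a difference from the saline mean, was -0.054, 0.026 and 0.027 in the saline pools and -0.012, -0.081 and -0.0088 in the ethanol pools. The mean of 12 thalamus markers was 0.035, -0.016 and -0.019 in the saline pools and 0.71, 0.29 and 0.093 in the ethanol pools. Like Grin2c, the means of 5 microglia and 7 myelin markers were lowest in saline pool 1 and highest in saline pool 2 among the saline pools. The part of any of these cells in the Grin2c values was not tested.

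Grin2d encodes GluN2D, known from interneurons, thalamus and brainstem. It measured 5.85, 5.60 and 5.74 in the saline pools and 5.97, 5.75 and 5.81 in the ethanol pools, not far above the receptor level of 5.38. Ethanol pool 1 was the highest and saline pool 2 the lowest, and the groups overlapped. The change, the highest of the 9, was 0.11 ± 0.074 (SE) with an interval from -0.058 to 0.28 and an adjusted p of 0.932 in limma. Leaving out saline pool 2 gave 0.049 and leaving out ethanol pool 1 gave 0.050, while leaving out saline pool 1 gave 0.17 and leaving out ethanol pool 2 gave 0.16.

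Grin3a encodes GluN3A, a glycine-binding subunit that lowers calcium entry and is known for its peak in early postnatal life. Its level was 8.78, 8.59 and 8.77 in the saline pools and 8.74, 8.74 and 8.69 in the ethanol pools. The ethanol pools all lay inside the saline range. The change was 0.0088 ± 0.056 (SE), with an interval from -0.12 to 0.14. It turned to -0.0068 with median centring, to -0.051 without saline pool 2 and to -0.0023 without ethanol pool 1.

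**Figure D2:**
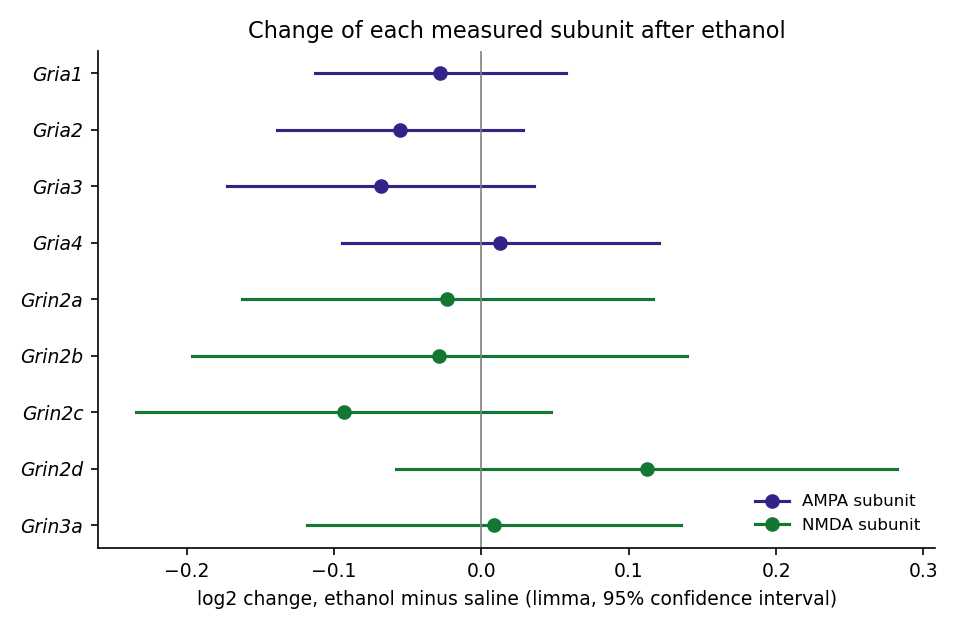
Log2 change of each measured subunit, ethanol minus saline (horizontal axis), with limma's 95% confidence interval as a line, AMPA subunits in dark blue and NMDA subunits in green. All 9 intervals include 0, and those of the 4 AMPA subunits rest on standard errors from 0.036 to 0.047 while those of the 5 NMDA subunits rest on 0.056 to 0.074.

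The balance between subunits within a pool was compared for 2 pairs, as the difference of their log2 values. That difference also holds the unequal brightness of the probe sets, so only its change between groups can be read. Grin2b minus Grin2a was 0.46, 0.48 and 0.43 in the saline pools and 0.54, 0.41 and 0.40 in the ethanol pools. The means were 0.46 ± 0.025 and 0.45 ± 0.076 (SD, n = 3 each), a difference of -0.0055 with p = 1 in a two-sided exact permutation test. Ethanol pool 1 was the highest of the 6 and the other ethanol pools the lowest, so the groups overlapped. The sign turned without saline pool 2, ethanol pool 2 or ethanol pool 3.

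Gria1 minus Gria2 was -0.048, -0.046 and -0.020 in the saline pools and 0.011, -0.022 and -0.021 in the ethanol pools. Saline pool 3 lay above ethanol pools 2 and 3, and ethanol pool 1 was the highest. The means were -0.038 ± 0.016 and -0.011 ± 0.019 (SD, n = 3 each), a difference of 0.028 with p = 0.3 in the exact permutation test and 0.6 after Benjamini-Hochberg adjustment over the 2 pairs. With 3 pools against 3 the smallest p this test allows is 0.1, so neither pair could have passed.

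**Figure D3:**
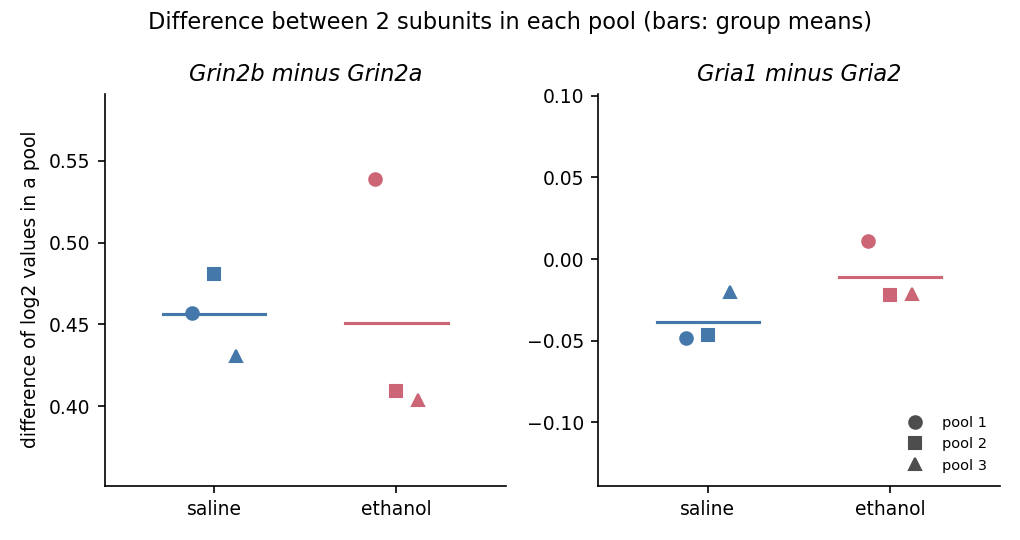
Difference of log2 values between 2 subunits in each pool (vertical axis), Grin2b minus Grin2a and Gria1 minus Gria2, with saline pools in blue, ethanol pools in red and bars at the group means. The group means differ by -0.0055 in the first panel and by 0.028 in the second, and the pools of both groups overlap in each.

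The subunits tended to share an order of pools within each group. Saline pool 2 was the lowest saline pool in 6 of the 9 (Gria3, Gria4, Grin2a, Grin2b, Grin2d and Grin3a), where it was the lowest in 35.8% of all genes, and saline pool 1 was the highest in the same 6. In Gria1, Gria2 and Grin2c saline pool 2 was instead the highest. Ethanol pool 3 was the lowest ethanol pool in 7 of the 9, all but Gria4 and Grin2d, beside 33.0% of all genes. Ethanol pool 1 was the highest in 6 of the 9, beside 32.6% of all genes. The subunits were read from the same arrays and are not independent of each other, so these counts are descriptions and carry no test.

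Markers of neighbouring tissue differed among the same pools. The mean of 12 thalamus markers, as a log2 difference from the saline mean, was 0.035, -0.016 and -0.019 in the saline pools and 0.71, 0.29 and 0.093 in the ethanol pools. Of the 12, 11 were higher in ethanol and 8 passed an unadjusted p under 0.05, all higher, where 2.80% of all genes did. The list was chosen with earlier results of these data known. It holds Tcf7l2 (0.59), which the study itself reported as higher in ethanol, so this count is a description and not a test. The markers Shox2, Tnnt1 and Gbx2 lay at or below the receptor level. The mean of 12 choroid plexus markers was -0.17, -0.034 and 0.21 in the saline pools and 1.101, -0.29 and 0.66 in the ethanol pools, and 3 of the 12 passed (Kl, Steap1 and Kcne2). By the methods' t-test, unadjusted, the thalamus list kept 1 call of its 8 and the choroid plexus list 0 of its 3. Ethanol pool 1, the pool with the highest means of both lists, was also the highest of the 6 pools for Grin2d at 0.24, Grin2b at 0.11 and Gria4 at 0.070 above their saline means. That pool was not the highest for Gria1, Gria2, Gria3, Grin2a, Grin2c or Grin3a, and Grin2c stood at -0.11 from its saline mean there. Saline pool 1 also stood above the saline mean for Grin2d at 0.12 and Grin2b at 0.093. Its thalamus mean was 0.035 and its choroid plexus mean -0.17. The part of such tissue in the subunit values was not tested.

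The list means of the neurons that carry the receptors moved less. For 11 markers of hippocampal excitatory neurons the mean ran from -0.030 to 0.039 in the saline pools and from -0.020 to 0.055 in the ethanol pools. Of the 11, 0 passed, but single markers differed more than their mean. Over ethanol pools 1 to 3, Prox1 measured 9.96, 9.93 and 9.57 and Dsp 8.58, 8.37 and 8.14. Spink8 ran the other way, at 8.15, 8.34 and 8.43. The part of such differences in the subunit values was not tested. The mean of 10 markers of GABAergic interneurons ran from -0.020 to 0.017 in the saline pools and from -0.0054 to 0.057 in the ethanol pools, and 0 of the 10 passed. Of 7 myelin markers 3 passed as lower (Mal, Opalin and Cldn11), where 2.41% of all genes did, with a median change of -0.12, and 1 of the 7 passed in the methods' t-test.

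**Figure D4:**
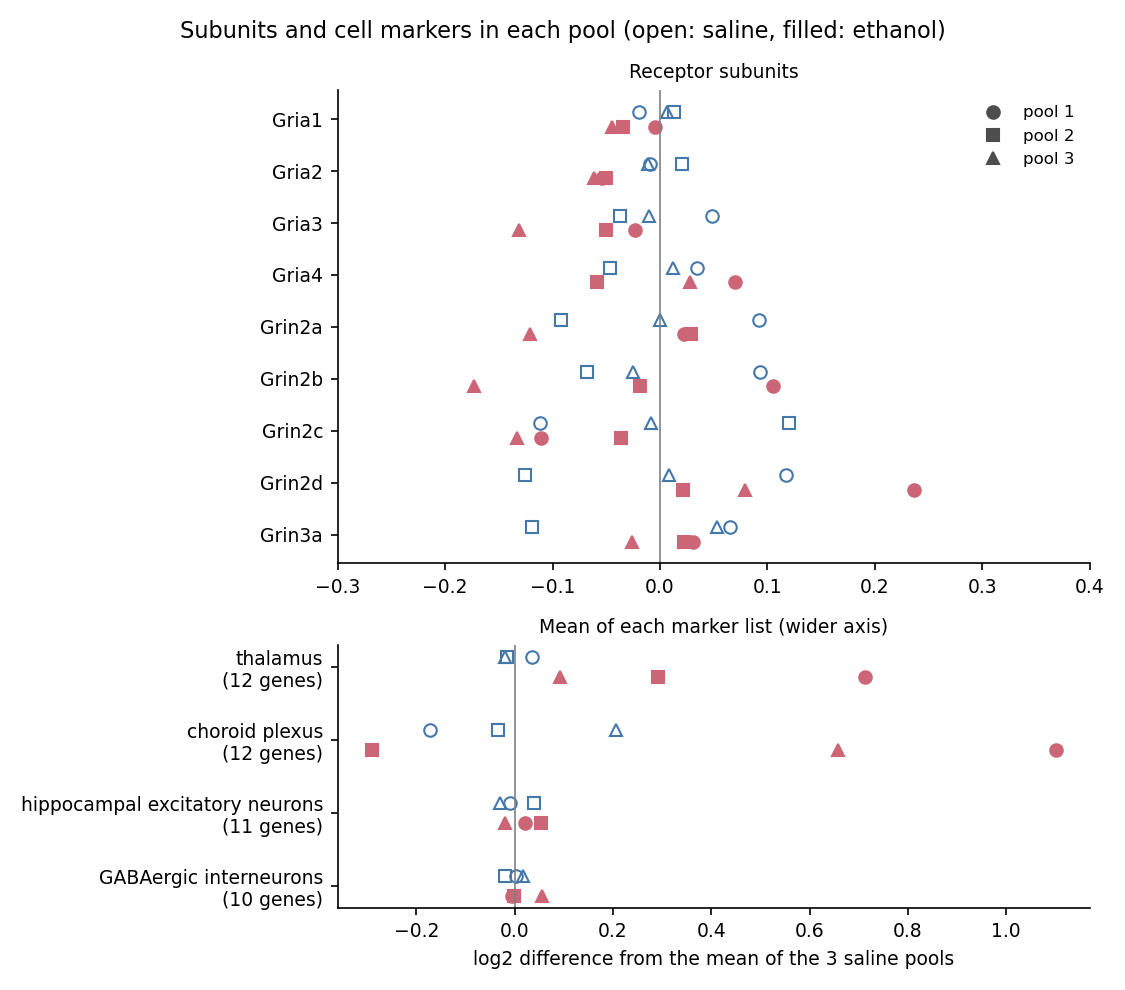
Distance of each pool from the saline mean in log2 units (horizontal axis) for the 9 subunits (upper panel) and for the means of 4 marker lists (lower panel, wider axis), with saline pools as open symbols, ethanol pools as filled symbols and 1 shape per pool number. The filled circle of ethanol pool 1 is at 0.24 for Grin2d, with the thalamus mean at 0.71 and the choroid plexus mean at 1.101.

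The genes around the receptors were grouped by role, with calls at an unadjusted p under 0.05 in limma, which 5.22% of all genes passed. None of them passed after adjustment, the lowest adjusted p over all genes being 0.931. Of 14 measured auxiliary and assembly proteins of AMPA receptors, 1 passed. Cacng5, which encodes an auxiliary subunit of the TARP family that modulates channel gating, rose from 7.34, 7.23 and 7.25 in the saline pools to 7.48, 7.51 and 7.40 in the ethanol pools. The pools did not overlap, as in 2 of the 14 genes of this list and 10.4% of all genes. The change was 0.19 ± 0.048 (SE), a ratio of 1.14, with an interval from 0.081 to 0.30, and it kept an unadjusted p under 0.05 under each of the alternatives run, the methods' t-test included. The members with the highest means gave 0.0061 ± 0.043 for Cnih2, a cornichon that aids export of AMPA receptors, and -0.065 ± 0.042 for Cacng3, another TARP.

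Of 14 measured scaffolds and trafficking proteins that bind the subunits, 2 passed, both lower. Dlg2 encodes PSD-93, a postsynaptic scaffold of NMDA receptors. It fell from 11.34, 11.36 and 11.40 in the saline pools to 11.28, 11.31 and 11.20 in the ethanol pools, a change of -0.11 ± 0.044 (SE). Its pools did not overlap, as in 2 of the 14 genes of this list and 10.4% of all genes. Its call was lost with all rows tested, without saline pool 2 or 3 and without ethanol pool 1 or 3. Grip2, which encodes a scaffold that binds GluA2 and GluA3, changed by -0.17 ± 0.063 (SE), but its mean of 5.34 lay below the receptor level. Its call was lost in the methods' t-test, without saline pool 1, where the change was -0.10, and without ethanol pool 3.

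Of 10 measured genes of glutamate and co-agonist supply and clearance, 2 passed, both higher and both vesicular glutamate transporters. The means of 6 of the 10 were lower in ethanol. Pools did not overlap for 5 of the 10, where 10.4% of all genes did not. Besides the 2 with a call these were Slc1a1 (-0.035), Slc1a2 (-0.016) and Slc1a3 (-0.064), all lower in ethanol. Slc17a6 encodes VGLUT2, the transporter typical of thalamic and other subcortical glutamate neurons, and it is one of the thalamus markers above. It rose from 8.01, 8.04 and 8.17 in the saline pools to 8.81, 8.41 and 8.21 in the ethanol pools, a change of 0.40 ± 0.13 (SE) and a ratio of 1.32. Without ethanol pool 1 the change was 0.24, and it kept its call. The ethanol pools stood in the same order as in the mean of the thalamus markers, and the part of thalamic tissue in this value was not tested. Slc17a8, which encodes VGLUT3, rose from 5.82, 5.72 and 5.88 to 5.91, 5.92 and 5.98, a change of 0.13 ± 0.050 (SE). Neither passed the methods' t-test, and Slc17a8 also lost its call with median centring, quantile normalization or array weights, and without saline pool 1, saline pool 2 (0.082), ethanol pool 2 or ethanol pool 3.

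In the other lists 0 genes passed. Of 13 kinases and phosphatases that act on the subunits or downstream of NMDA receptors, 0 passed in either direction, with a median change of 0.0053. Camk2a, the kinase that phosphorylates GluA1 during potentiation, changed by 0.025 ± 0.037 (SE), and Ppp3ca, the catalytic subunit of calcineurin, by -0.024 ± 0.038 (SE). Of 9 other ionotropic glutamate receptor genes, a list of kainate and delta receptor subunits, their partners and Grin3b, 0 passed. Neto1 and Neto2, auxiliary proteins of kainate receptors, gave -0.044 ± 0.048 and 0.024 ± 0.049 (SE), and Grin3b lay at or below the receptor level. Of 5 RNA editing and splicing factors of subunit transcripts, 0 passed. All 5 means were higher in ethanol, where 9994 of 19938 genes were, with a median change of 0.045. Adarb1 encodes ADAR2, the enzyme that edits the Gria2 transcript. It measured 9.73, 9.73 and 9.70 in the saline pools and 10.06, 9.80 and 9.70 in the ethanol pools. The difference of 0.14 ± 0.082 (SE) came mostly from ethanol pool 1, and Adar gave 0.023 ± 0.053 (SE).

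**Figure D5:**
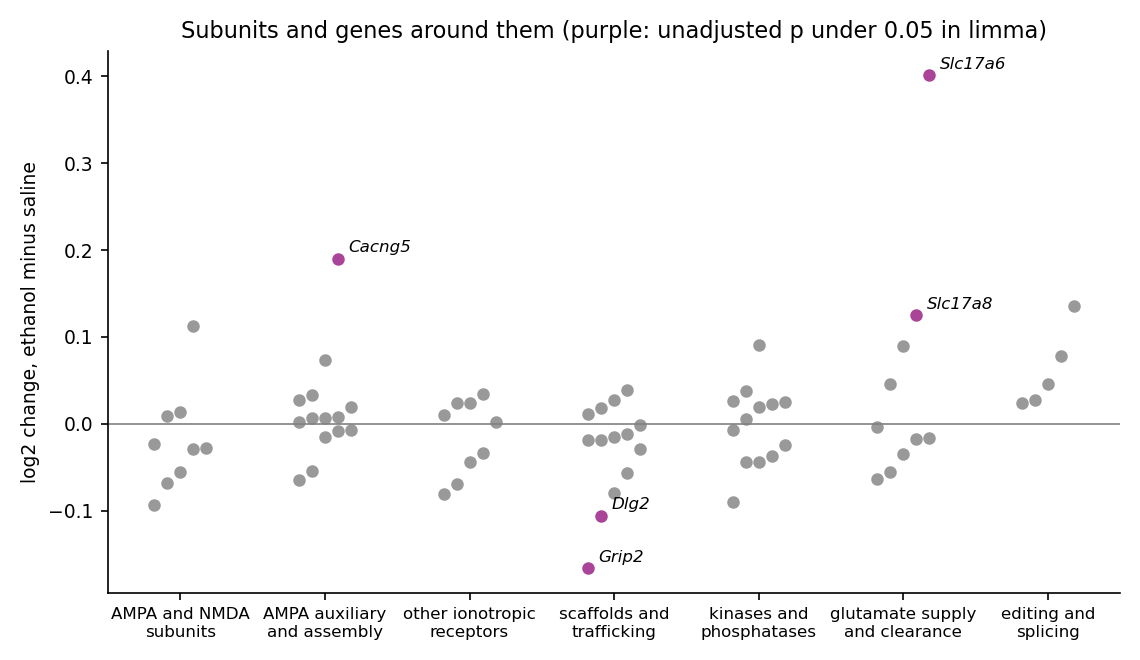
Log2 change, ethanol minus saline (vertical axis), of the 9 subunits and of the genes of 6 lists around them, each point a gene, in purple where the unadjusted p of limma was under 0.05. Among the subunits 0 points are purple, and the purple points are Cacng5, Dlg2, Grip2, Slc17a6 and Slc17a8, with changes from -0.17 to 0.40.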

How the data were processed

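Hippocampal RNA was hybridised to Affymetrix Mouse Gene 1.0 ST arrays, 3 per group, each of RNA pooled by the authors from 3 mice. The authors summarised probes with RMA (background correction, quantile normalization and summary per probe set) and deposited log2 values for 35556 rows. The software versions of RMA and the build of the array annotation were not given in the sources used here. RMA pulls the arrays towards 1 distribution, so a shift shared by most genes would be largely removed. Small offsets remained, with array medians from 5.84 to 5.89.

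Probe sets were named from the platform annotation: 23410 had at least 1 symbol, 1621 had several and were not used to name a gene, and 12146 had none. Each gene was represented by its probe set with the highest mean, which left 19938 genes. limma 3.58.1 in R 4.3.3 (lmFit and eBayes) was fitted to all named probe sets with no block or covariate. Benjamini-Hochberg adjustment ran over all 23410 of these probe sets, before 1 was picked per gene. The threshold was 0.05, and the steps were tested on simulated data. The 2 within-pool differences were tested with a two-sided exact permutation test. The methods' analysis of variance, which for 2 groups is an equal-variance t-test, was run on the same values as an alternative. The other alternatives were a replicate block, median centring, quantile normalization, array weights, all rows, a filter at the receptor level, averaging the probe sets of each gene, and each array left out. All members were named, with the genes of each list past an unadjusted p under 0.05 (at most 4), or the 2 with the highest mean where fewer than 2 passed. The members and lists were chosen with earlier results of these data known. Some genes of the pathway lists are not reported here. Figures were drawn with matplotlib 3.10.9. Arrays of miRNA, DNA methylation and histone marks were not analysed here.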

Additional observations from a re-analysis of the deposited data

How the results depend on the processing

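Over 14 alternatives, 112 of the 126 subunit changes kept their direction and their side of the 0.05 threshold without adjustment, 3 passed it and 11 turned sign, and 0 passed after adjustment. The methods' t-test passed Gria2 (-0.055), and the fit with the replicate block passed Grin2d (0.11), so that 1 subunit passed in each. Same-numbered pools did not deviate together (correlations -0.049, -0.022 and 0.059), so the numbers are not known to pair them. Median centring turned Gria4 to -0.0027 and Grin3a to -0.0068, and array weights turned Grin3a to -0.0068. The scaffold list held 1 call in place of 2 with the t-test, the block, all rows or the receptor-level filter, of which the block and all rows lost Dlg2. The supply list held 0 with the t-test and 1 with median centring, quantile normalization or array weights. With each array left out, 0 to 1 subunits passed (Grin2c without saline pool 1), and the calls were 1 to 1 for AMPA auxiliary proteins, 1 to 2 for supply, 0 to 2 for scaffolds, kinases and other ionotropic genes each, and 0 to 1 for editing. The changes then ran from -0.040 to -0.019 for Gria1, -0.061 to -0.045 for Gria2, -0.091 to -0.037 for Gria3, -0.016 to 0.049 for Gria4, -0.069 to 0.026 for Grin2a, -0.096 to 0.044 for Grin2b, -0.15 to -0.033 for Grin2c, 0.049 to 0.17 for Grin2d and -0.051 to 0.041 for Grin3a. The pair differences ran from -0.050 to 0.018 for Grin2b minus Grin2a and from 0.017 to 0.037 for Gria1 minus Gria2. The number of arrays limits all of these values.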
